A study of Mus musculus with 22 samples.

Results

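DNA repair and recombination genes were followed through the transcriptomes of fully grown mouse oocytes arrested at the germinal vesicle stage (GV oocytes). The set held 46 genes, listed by symbol for their known roles, and all 46 were found among the 52636 genes of the deposited count table. By role they were 12 genes of homologous recombination, 5 of break sensing and signalling, 5 of non-homologous end joining, 7 of mismatch repair and meiotic crossover, 4 of the Fanconi anaemia pathway, 2 RecQ helicases, 8 of base excision and single-strand break repair and 3 of nucleotide excision repair. The study asked whether RNA interference (RNAi) and the PIWI-interacting RNA (piRNA) pathway stand in for each other in oocytes, and sequenced total RNA of pooled oocytes from C57BL/6 females in a single-end run and a paired-end run of 11 samples each.

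The single-end run held wild-type oocytes (n = 3), oocytes of Dicer ΔMT/ΔMT females (n = 4), 1 Dicer ΔMT/WT sample and oocytes of Dicer SOM/SOM females (n = 3), with no ages in their labels. The ΔMT allele lacks the retrotransposon-derived promoter of the oocyte isoform of Dicer, the enzyme that makes small interfering RNAs. The SOM allele, carried by mice that descend from 1 embryonic stem cell clone, lacks the introns that hold this promoter and encodes tagged full-length Dicer. In the paired-end run every female carried at least 1 Dicer SOM allele and at least 1 Mili DAH allele, a change in the catalytic site of the piRNA-pathway protein MILI, so the controls were themselves heterozygous for both. That run held 4 heterozygous controls with Mili DAH/WT and Dicer SOM/WT (named 1o, 2o, 2 and 3, aged 36, 38, 10 and 17 weeks), 2 RNAi mutants with Mili DAH/WT and Dicer SOM/SOM (17 and 13 weeks), 4 double mutants homozygous for Mili DAH and for Dicer SOM (1o, 2o, 1 and 2, aged 40, 35, 11 and 11 weeks) and 1 piRNA mutant with Mili DAH/DAH and Dicer SOM/WT (16 weeks). The labels do not tie samples to separate animals, so the p-values below measure the spread between these samples, and in pooled oocytes less RNA per cell cannot be told apart from a different mix of cells.

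Cells mend double-strand breaks by homologous recombination, which copies an intact sister or homologous chromosome, or by non-homologous end joining, which ligates the ends directly. Mismatch, base excision and nucleotide excision repair remove faulty bases, and the Fanconi anaemia pathway deals with strands that are cross-linked. GV oocytes have completed meiotic recombination before birth and store transcripts for the egg and early embryo, which rely on the maternal supply for repair before their own genome is active.

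Total counts ran from 22928936 to 43540806 per sample in the paired-end run and from 47741738 to 90713013 in the single-end run, apart from Dicer SOM/SOM replicate 3 with 6468380. Counts scaled by library size and composition (CPM) of Dicer1 were 997 to 1048 in wild type, 428 to 533 in Dicer ΔMT/ΔMT and 41.6 to 54.4 in Dicer SOM/SOM oocytes, and 502 to 763 in heterozygous controls against 53.2 to 62.1 in the RNAi and double mutants, so the libraries matched their Dicer labels. The Mili labels were not checked. The 14 oocyte markers checked summed to between 16063 and 21346 CPM in every sample, whereas the 9 theca and stroma markers stayed under 10 CPM each, and 7 of 10 blood cell, 2 of 5 endothelial and 2 of 12 granulosa markers stayed under 1 CPM in every sample. Other markers reached 10 CPM in at least 1 sample. These were Cyp19a1, Gja1, Inha, Inhba and Nr5a2 of granulosa cells, Cd68 and Ms4a1 of blood cells, and Pecam1 and Tek of endothelium. Granulosa and cumulus markers summed to 86.2 to 137 CPM in the single-end run and 93.3 to 161 in the paired-end run. Summed marker levels of these 4 cell types overlapped between mutants and their controls, with 2 exceptions. Blood cell markers summed to 46.7 to 47.1 CPM in RNAi mutants and 49.96 to 67.2 in their controls, and endothelial markers to 75.8 to 83.5 CPM in Dicer ΔMT/ΔMT and 74.95 to 76.0 in Dicer SOM/SOM against 88.9 to 93.0 in wild type; their part in the values below was not tested. The summed level of the 46 genes was 3345 to 3847 CPM in the single-end run apart from 2616 CPM in the shallow Dicer SOM/SOM replicate 3, and 3467 to 4211 CPM in the paired-end run.

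All 46 genes passed the filter on low counts in both runs. Levels set between genes are given per length, as CPM per kilobase of exon. Rad50, the coiled-coil ATPase of the complex that tethers broken ends, had the highest level per length in both control groups, at 101 ± 8.17 CPM per kilobase (SD, n = 3) in wild type and 106 ± 11.1 (SD, n = 4) in heterozygous controls. In wild type it was followed by Ung, the uracil DNA glycosylase, at 70.4 ± 4.16, by Brca2, a mediator of homologous recombination, at 53.3 ± 3.83, and by Xrcc5, a Ku subunit, at 53.1 ± 0.487; the last pair did not differ beyond their spread. In heterozygous controls the order after Rad50 was Xrcc5 (65.5 ± 2.28), Brca2 (63.3 ± 10.9) and Msh6 (56.1 ± 1.54), with Brca2 within its spread of both neighbours. At the other end Msh5, a meiotic crossover factor, stood at 0.15 in both groups, and 25 of the 46 genes reached 10 CPM per kilobase in wild type. Rad50 was not called in any comparison. It had 538, 549 and 471 CPM in wild type, 558, 539.8, 474 and 490.3 in Dicer ΔMT/ΔMT and 532, 546 and 361 in SOM/SOM oocytes, with the shallow replicate 3 lowest. It had 556, 584, 465 and 586 CPM in heterozygous controls, 499 and 639 in RNAi mutants and 578, 474, 623 and 489 in double mutants, which overlapped, with a log2 fold change of -0.02 (95% interval -0.30 to 0.26) in double mutants.

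**Figure D1:**
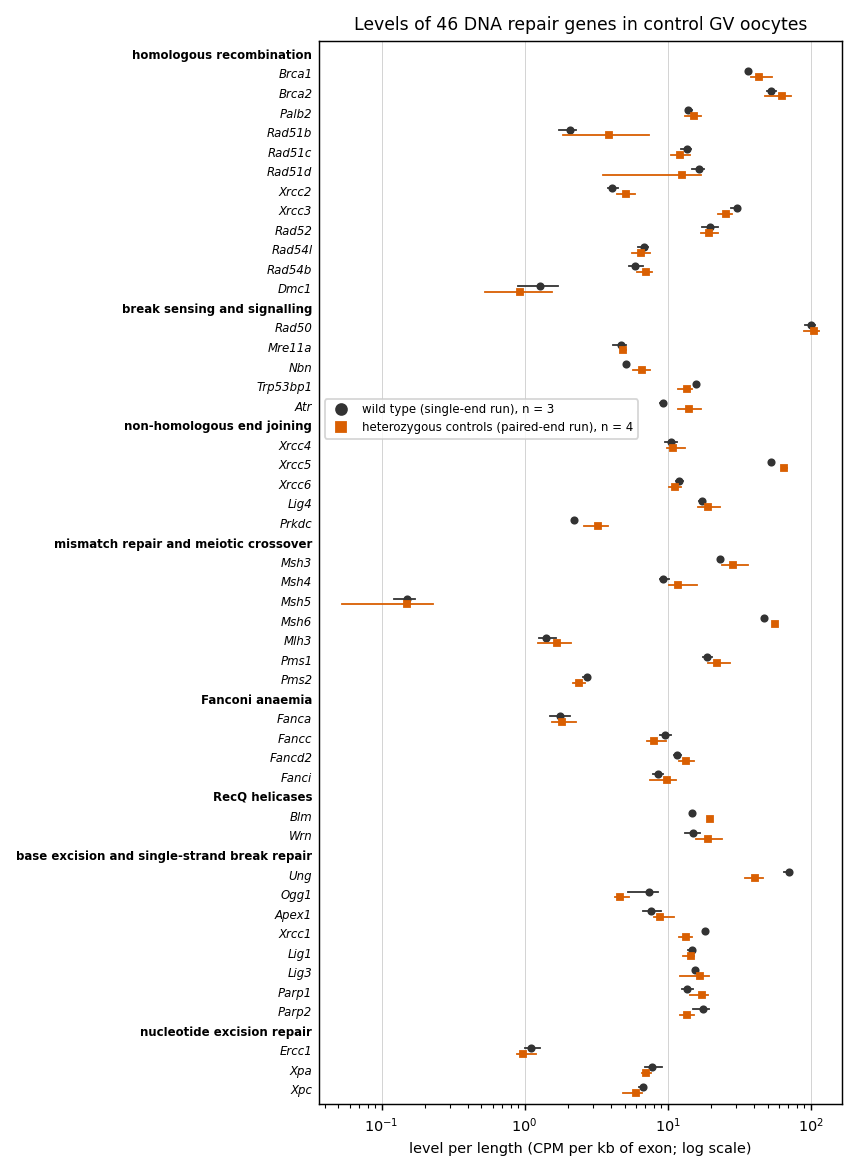
Levels per length of the 46 genes by role in the control groups, on a log scale of CPM per kilobase of exon. Points are means and lines run from the lowest to the highest sample of wild type (n = 3) and heterozygous controls (n = 4). Rad50 is highest at 101 and 106, and Msh5 lowest at 0.15 in both.

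The genotype comparisons moved few of the 46 genes, and the genes called in the same direction in SOM/SOM oocytes and in double mutants were Xrcc4 and Lig4 of end joining, the break signalling gene Trp53bp1, the recombination gene Rad52 and the base excision gene Apex1. Genes were called at an adjusted p under 0.05 (quasi-likelihood test of edgeR, Benjamini-Hochberg over all genes tested in that run). In Dicer SOM/SOM against wild type 4 of 46 were higher and 6 lower, where 14.5% and 14.2% of all 23151 genes tested were called higher and lower. In double mutants against heterozygous controls 4 were higher and 4 lower, beside 12.3% and 8.84% of all 20989 genes. Dicer ΔMT/ΔMT against wild type gave 0 higher and 5 lower, with 8.06% and 7.3% of all genes as background, and RNAi mutants against heterozygous controls gave 1 higher and 2 lower, with 7.07% and 3.64%. Direct comparison of Dicer SOM/SOM with Dicer ΔMT/ΔMT gave 1 higher and 2 lower (4.03% and 3.32% of all genes). These shares lie near or below the background, except for the lower calls in Dicer ΔMT/ΔMT, where 10.9% of the repair genes stood against 7.3%. That count was 1 or 2 genes when any 1 of the 7 samples was left out. The share of all genes in those fits is not given here, so these counts cannot be set against 7.3%. The median log2 fold change of the 46 was -0.06 in Dicer SOM/SOM and -0.05 in double mutants, against 0.02 and -0.00 over all genes tested. Both Dicer comparisons of the single-end run shared the wild-type samples, and the RNAi and double mutants shared the heterozygous controls.

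**Figure D2:**
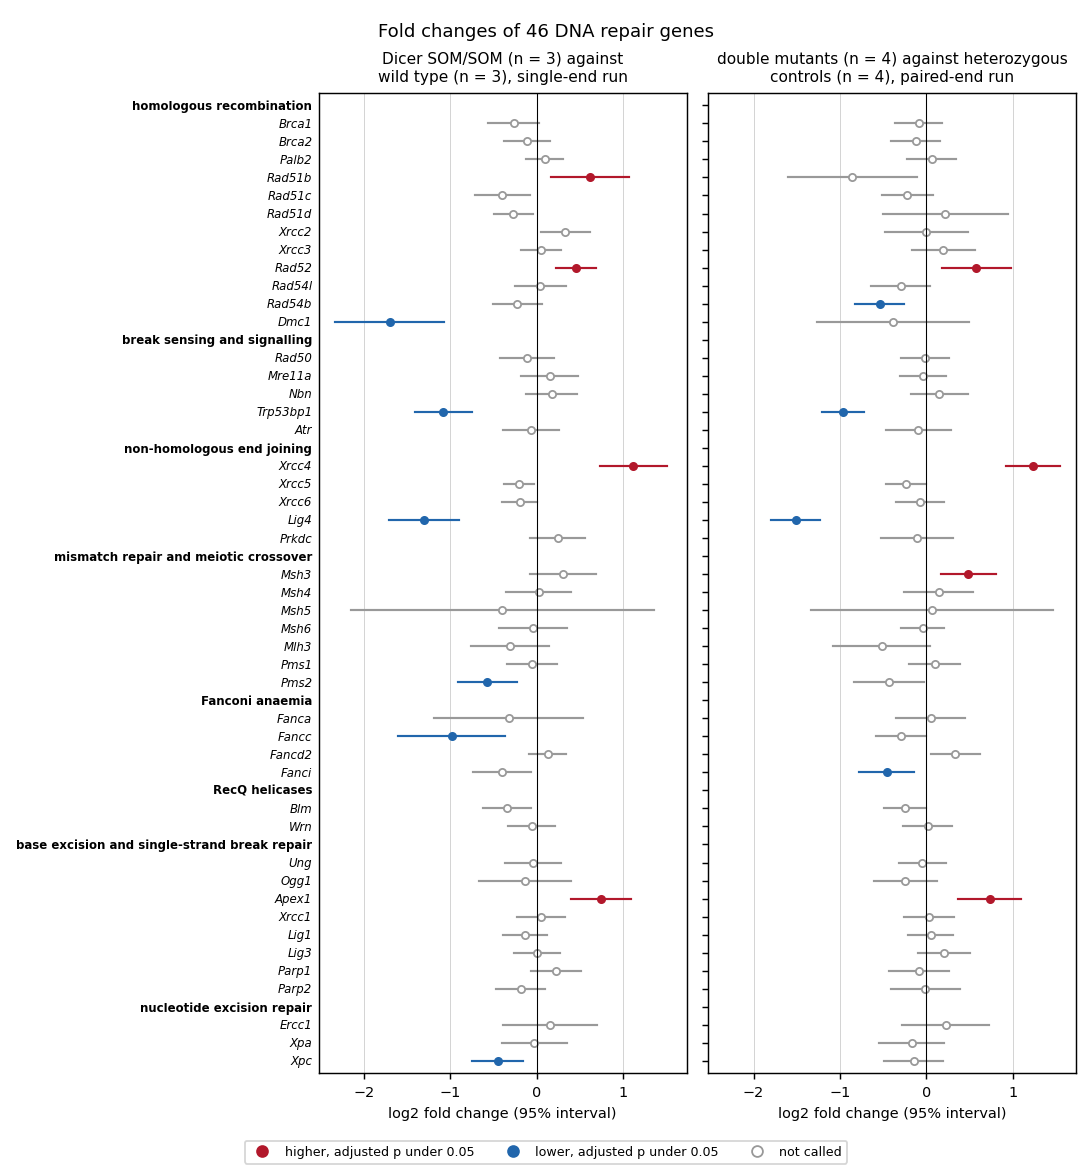
Log2 fold changes of the 46 genes, ordered by role, in Dicer SOM/SOM against wild type (left) and double mutants against heterozygous controls (right). Lines are 95% intervals and filled points passed the adjusted p threshold. Xrcc4 stands far right and Lig4 far left in both panels, at 1.12 and -1.30 and at 1.23 and -1.52. Dmc1 lies further left than Lig4 in the left panel, at -1.70.

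Counted over both runs, which share no samples, the comparisons of Dicer SOM/SOM with wild type and of double mutants with heterozygous controls both called 3 genes higher and 2 lower, and 0 were called in opposite directions. Over all 20089 genes tested in both, the corresponding shares were 8.18% higher, 6.72% lower and 0.0846% opposite. With the RNAi mutants in place of the double mutants, Xrcc4 alone was higher and Trp53bp1 and Lig4 were lower in both runs and 0 were opposite, beside 6.05%, 3.14% and 0.00498% of all genes. Of the 46, the 95% interval of the fold change lay within 1 log2 unit of no change for 37 in SOM/SOM oocytes, 43 in ΔMT/ΔMT oocytes, 36 in RNAi mutants and 38 in double mutants. Within 0.5 log2 units the counts were 22, 26, 14 and 21. Over all genes tested, in the same order, the shares within 1 log2 unit were 49.2%, 59.3%, 41.98% and 48.04%. Within 0.5 log2 units they were 17.6%, 25.4%, 8.72% and 14.2%.

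Among the genes of non-homologous end joining, the transcripts of Xrcc4 and Lig4, which encode partner proteins, moved in opposite directions. Levels of the proteins are not part of these data. XRCC4 is the scaffold that binds and stabilises DNA ligase IV, encoded by Lig4, and together they seal the ends that the Ku proteins and the DNA-dependent protein kinase hold. Xrcc4 (chromosome 13, 89848921 to 90089608, minus strand, mm10) had 15.9, 14.8 and 17.9 CPM in the wild-type samples, 21.6, 18.9, 17.7 and 21.7 in Dicer ΔMT/ΔMT and 41.0, 38.6 and 24.0 in those of Dicer SOM/SOM. The shallow replicate 3 was the lowest SOM/SOM sample, yet all 3 lay above every wild-type and ΔMT/ΔMT sample. In the paired-end run Xrcc4 had 16.6, 15.3, 20.4 and 15.2 CPM in heterozygous controls, 35.1 and 37.9 in RNAi mutants and 40.3, 33.2, 43.8 and 41.2 in double mutants, and the mutants did not overlap the controls. The rise in Dicer SOM/SOM was 1.12 ± 0.18 on the log2 scale (SE, adjusted p = 0.000899), in RNAi mutants 1.11 ± 0.18 (adjusted p = 0.000742) and in double mutants 1.23 ± 0.15 (adjusted p = 4.37e-05). In Dicer ΔMT/ΔMT the fold change of 0.30 (95% interval -0.06 to 0.67) did not pass the test. The direct comparison of SOM/SOM with ΔMT/ΔMT gave 0.82 ± 0.17 (adjusted p = 0.0134), which became 0.68 (adjusted p = 0.0533) without Dicer SOM/SOM replicate 1.

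Lig4 (chromosome 8, 9969049 to 9977686, minus strand, mm10) had 95.4, 91.7 and 86.5 CPM in wild type, 49.7, 45.7, 41.7 and 42.3 in Dicer ΔMT/ΔMT and 49.4, 33.2 and 26.04 in SOM/SOM oocytes. Paired-end samples gave 84.6, 95.3, 99.1 and 120.8 CPM in heterozygous controls, 35.2 and 33.9 in RNAi mutants and 34.1, 39.4, 34.0 and 32.4 in double mutants. Each group homozygous for a Dicer allele lay wholly below its controls. On the log2 scale Lig4 fell by 1.03 ± 0.17 in ΔMT/ΔMT oocytes (SE, adjusted p = 0.00217), by 1.30 ± 0.18 in SOM/SOM oocytes (adjusted p = 0.000421), by 1.53 ± 0.16 in RNAi mutants (adjusted p = 5.7e-05) and by 1.52 ± 0.13 in double mutants (adjusted p = 3.27e-06). SOM/SOM and ΔMT/ΔMT did not separate for Lig4, with a fold change of -0.28 (95% interval -0.66 to 0.10), a comparison that was called without Dicer SOM/SOM replicate 1. Leaving out any 1 sample of the compared groups kept the Lig4 call in these 4 comparisons. The annotation places no other gene over the exons of Lig4, while 7.27% of the exon length of Xrcc4 is shared with Tmem167 on the other strand, and the counting ignored strand. Tmem167 was not called in either run, with log2 fold changes of 0.18 in Dicer SOM/SOM and -0.20 in double mutants.

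Set against each other per length in the same sample, Xrcc4 was the lower of the pair in each wild-type, Dicer ΔMT/WT, heterozygous control and piRNA mutant sample and the higher one in each sample homozygous for a Dicer mutation. The ratio of Xrcc4 to Lig4 ran from 0.547 to 0.698 in wild type, 1.40 to 1.74 in Dicer ΔMT/ΔMT and 2.80 to 3.93 in Dicer SOM/SOM. It ran from 0.424 to 0.694 in heterozygous controls, 3.37 to 3.77 in RNAi mutants and 2.85 to 4.35 in double mutants, and was 0.640 in the Dicer ΔMT/WT sample and 0.673 in the piRNA mutant. This ratio was formed after the values were seen and is given as a description without a test.

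**Figure D3:**
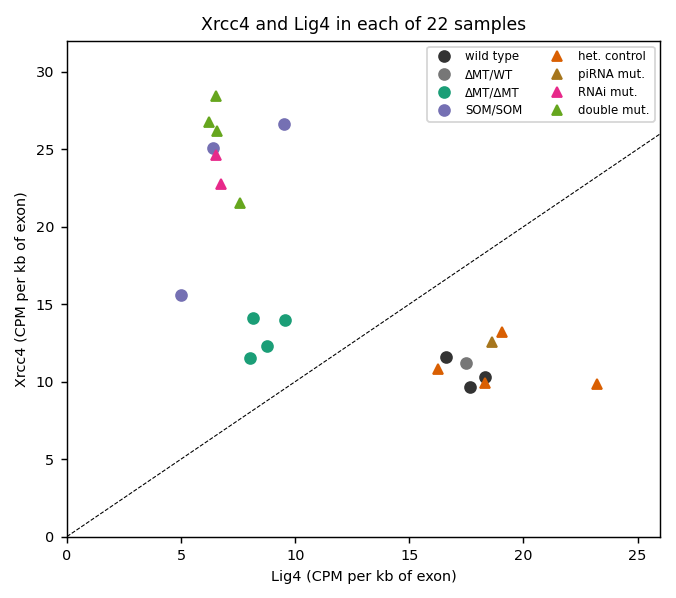
Levels per length of Xrcc4 (vertical) and Lig4 (horizontal) in each of the 22 samples, in CPM per kilobase of exon; circles are the single-end run, triangles the paired-end run and the dashed line marks equal levels. Samples with at least 1 wild-type Dicer allele lie below the line with ratios of 0.424 to 0.698, and homozygous Dicer mutants above it with ratios of 1.40 to 4.35.

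The other end-joining genes did not pass the test in any comparison. Xrcc5 and Xrcc6, which encode the Ku subunits that cap broken ends, had log2 fold changes of -0.20 each in Dicer SOM/SOM and of -0.23 and -0.07 in double mutants. Prkdc, the catalytic subunit of the DNA-dependent protein kinase, had 0.24 and -0.11. The Xrcc5 samples did not overlap between Dicer SOM/SOM and wild type or ΔMT/ΔMT, nor between double mutants and controls. Those of Xrcc6 did not overlap between Dicer SOM/SOM and wild type. By DESeq2 Xrcc5 was called lower in SOM/SOM against ΔMT/ΔMT.

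The promoters of the 3 genes called in the same direction in Dicer SOM/SOM, RNAi mutants and double mutants are shown for context, because these genes carry the comparison. The RefSeq table held an entry for 5 of the 6 genes plotted by sample here (none for Rad51d). Each run is the 250 bases before the RefSeq transcription start nearest to the 5′ end of the gene model (GRCm38.p6), 5′ to 3′ on the gene's strand, and capitals mark matches to the searched motifs on either strand.
Xrcc4, chr13:90089609-90089858, minus strand: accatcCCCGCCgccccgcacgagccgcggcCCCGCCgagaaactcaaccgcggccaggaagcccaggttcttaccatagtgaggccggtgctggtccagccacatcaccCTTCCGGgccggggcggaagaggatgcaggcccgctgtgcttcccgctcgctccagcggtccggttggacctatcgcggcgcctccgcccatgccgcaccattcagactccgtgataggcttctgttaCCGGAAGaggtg
Lig4, chr8:9977681-9977930, minus strand: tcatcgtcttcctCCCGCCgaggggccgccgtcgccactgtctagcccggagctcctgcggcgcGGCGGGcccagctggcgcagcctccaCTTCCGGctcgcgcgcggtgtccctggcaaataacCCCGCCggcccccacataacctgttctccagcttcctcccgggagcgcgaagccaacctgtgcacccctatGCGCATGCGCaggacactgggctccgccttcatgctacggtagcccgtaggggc
Trp53bp1, chr2:121271408-121271657, minus strand: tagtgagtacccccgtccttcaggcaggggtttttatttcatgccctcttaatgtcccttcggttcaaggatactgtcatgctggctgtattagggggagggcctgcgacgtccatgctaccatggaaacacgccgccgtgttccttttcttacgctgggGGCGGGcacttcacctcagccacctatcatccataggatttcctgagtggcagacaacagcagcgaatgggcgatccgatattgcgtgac

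The motifs were the GC box (here the letters GGCGGG alone), the TATA box (TATAAA), an NRF1 motif (GCATGCGC), an ETS motif (CCGGAAG) and the CCAAT box, chosen with these sequences in view. Other forms of these motifs, such as GGGCGG for the GC box, were not searched or marked. Of 32851 promoters of the same length, 32.5% held a GC box, 12.4% a TATA box, 2.26% the NRF1 motif, 6.91% the ETS motif and 33.8% a CCAAT box. The Lig4 stretch held 3 GC boxes, 1 ETS motif and 2 overlapping NRF1 matches, 1 on each strand, and the Xrcc4 stretch held 2 GC boxes and 2 ETS motifs. The Trp53bp1 stretch held 1 GC box. GC content was 68.0% for Xrcc4, 70.0% for Lig4 and 54.4% for Trp53bp1, against a median of 52.4% over all promoters. Matches describe letters in these windows and were not tested for use.

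Break sensing and signalling had 1 gene of 5 called, lower, beside 14.2% of all genes called lower in Dicer SOM/SOM and 8.84% in double mutants. Trp53bp1 encodes 53BP1, the chromatin-bound factor that shields broken ends from resection and favours end joining. Its locus lies on chromosome 2 from 121194838 to 121271407 on the minus strand. It had 156, 147.5 and 154 CPM in wild type, 103, 101, 115 and 112 in Dicer ΔMT/ΔMT and 80.1, 82.1 and 50.8 in Dicer SOM/SOM, a stepwise order of the 3 groups without overlap. Heterozygous controls had 135, 142, 114 and 136 CPM, RNAi mutants 78.0 and 81.4 and double mutants 66.4, 63.9, 65.2 and 73.9, again without overlap between controls and mutants. On the log2 scale Trp53bp1 fell by 0.50 ± 0.14 in ΔMT/ΔMT oocytes (SE, adjusted p = 0.0309), by 1.08 ± 0.15 in SOM/SOM oocytes (adjusted p = 0.000363), by 0.72 ± 0.14 in RNAi mutants (adjusted p = 0.00415) and by 0.97 ± 0.11 in double mutants (adjusted p = 3.7e-05). SOM/SOM stood below ΔMT/ΔMT by a log2 fold change of -0.58 ± 0.14 (adjusted p = 0.0334), while double and RNAi mutants did not differ by the test (-0.24, 95% interval -0.54 to 0.05). The ΔMT/ΔMT call was lost without any 1 of its 7 samples (adjusted p 0.0556 to 0.0992), the SOM/SOM against ΔMT/ΔMT call without any 1 of the 4 ΔMT/ΔMT samples (0.0633 to 0.0734) and the RNAi mutant call without RNAi mutant replicate 1 (0.0552) or with younger animals alone (0.0645). Tubgcp4, on the other strand, shares 22.1% of the exon length of Trp53bp1 and was itself lower in Dicer SOM/SOM (log2 fold change -0.51, adjusted p = 0.00656), with -0.41 (adjusted p = 0.0661) in double mutants, so reads of these genes cannot be told apart in the shared part.

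Partners in the same pathway stayed near their control levels. Mre11a and Nbn, which form the end-tethering complex with Rad50, had log2 fold changes of 0.15 and 0.17 in Dicer SOM/SOM and of -0.04 and 0.15 in double mutants. Atr, the kinase that responds to single-stranded DNA, had -0.06 and -0.09.

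Homologous recombination held 12 genes, and the calls were 2 higher and 1 lower for SOM/SOM oocytes, and 1 higher and 1 lower for double mutants. Over all genes 14.5% were called higher and 14.2% lower in SOM/SOM oocytes, and 12.3% and 8.84% in double mutants. Rad52 was the gene that rose in both. RAD52 anneals complementary single strands (gene on chromosome 6, 119902703 to 119922823, plus strand). It had 29.3, 38.2 and 33.8 CPM in wild type, 36.8, 39.4, 38.0 and 38.2 in Dicer ΔMT/ΔMT and 45.3, 48.7 and 44.2 in Dicer SOM/SOM, where all 3 samples lay above the other groups. The heterozygous controls had 28.9, 37.9, 35.7 and 29.2 CPM, the RNAi mutants 36.2 and 43.3 and the double mutants 35.5, 55.2, 41.9 and 64.3, so that double mutants and controls overlapped. Rad52 rose by 0.46 ± 0.11 on the log2 scale in Dicer SOM/SOM (adjusted p = 0.00816) and by 0.58 ± 0.18 in double mutants (adjusted p = 0.0382), and had 0.27 (95% interval -0.21 to 0.76) in RNAi mutants. The paired-end libraries split by the level of Gm42418, a gene model over ribosomal RNA sequence, into 6 with at least 4086 CPM and 5 with at most 557 CPM, and Rad52 moved with that split. Double mutants 2o and 2 (55.2 and 64.3 CPM) and controls 2o and 2 (37.9 and 35.7) were in the low set, and double mutants 1o and 1 (35.5 and 41.9) and controls 1o and 3 (28.9 and 29.2) in the high set, so the double mutants were higher within each. Both RNAi mutants (36.2 and 43.3 CPM) were in the high set, above both controls of that set. With a term for this split the double mutant value was 0.56 (adjusted p = 0.00458), and Rad52 was also called higher in RNAi mutants. The double mutant call was lost without double mutant 2o, double mutant 2, control 1o or control 3 (adjusted p 0.0917 to 0.107) and with younger animals alone (0.106).

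**Figure D4:**
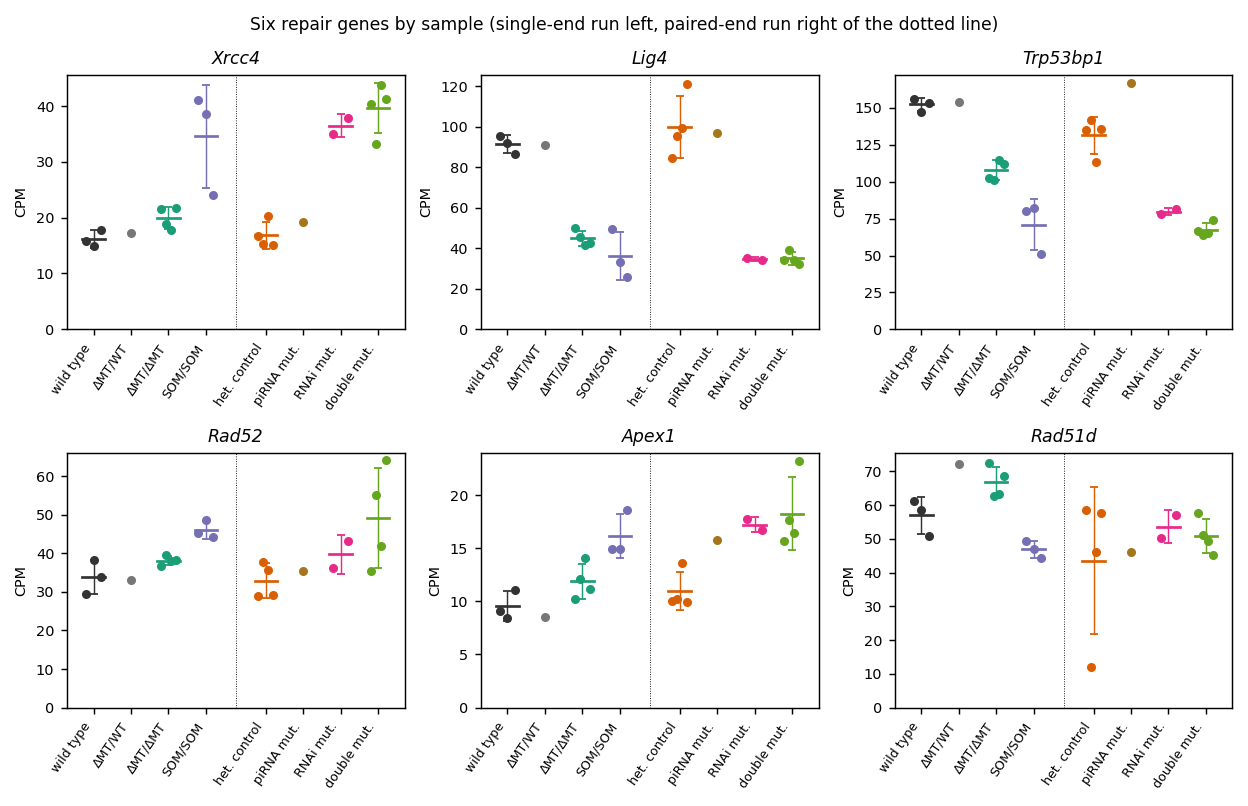
CPM of 6 repair genes in each sample, with the group mean (bar) and SD (whisker) where a group has more than 1 sample; the single-end run is left and the paired-end run right of the dotted line, and vertical axes start at 0. Xrcc4, Rad52 and Apex1 are higher and Lig4 and Trp53bp1 lower in Dicer SOM/SOM and double mutants, and Rad51d shows 1 control at 12.1 CPM.

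Rad51d, a gene of homologous recombination, separated the Dicer alleles. It had 61.2, 58.6 and 50.9 CPM in wild type, 72.4, 62.5, 63.2 and 68.6 in Dicer ΔMT/ΔMT and 49.5, 46.8 and 44.3 in Dicer SOM/SOM. SOM/SOM lay lowest, ΔMT/ΔMT highest and wild type between them without overlap. The SOM/SOM against ΔMT/ΔMT difference was -0.50 ± 0.10 on the log2 scale (adjusted p = 0.0112), while against wild type neither allele passed (0.23, adjusted p = 0.132 for ΔMT/ΔMT, and -0.27, adjusted p = 0.0695 for SOM/SOM, which was called without wild-type replicate 3). In the paired-end run Rad51d was not called, with 58.4, 12.1, 46.1 and 57.6 CPM in heterozygous controls, 50.2 and 57.1 in RNAi mutants and 57.5, 51.1, 49.3 and 45.2 in double mutants. Control 2o, at 12.1 CPM from 362 counts, was the lowest, and the double mutant fold change had a 95% interval of -0.50 to 0.94.

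Dmc1, the recombinase specific to meiosis, was lower in both single-end comparisons, with a log2 fold change of -0.85 ± 0.24 (SE, adjusted p = 0.0344) in ΔMT/ΔMT and of -1.70 ± 0.29 (adjusted p = 0.00141) in SOM/SOM oocytes. Its level was low, at 1.98 to 3.75 CPM in wild type and 0.70 to 1.15 in SOM/SOM, the latter from 8 to 45 counts. Paired-end controls spread from 1.17 to 3.39 CPM and double mutants from 0.86 to 2.95, with a fold change of -0.38 (95% interval -1.26 to 0.49). The ΔMT/ΔMT call was lost without any 1 sample except wild-type replicate 2 (adjusted p 0.0505 to 0.153), while the SOM/SOM call held without any 1 sample.

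Rad51b was higher in Dicer SOM/SOM (0.62 ± 0.21, adjusted p = 0.0438), from 6.16 to 8.15 CPM in wild type and 13.2, 12.4 and 6.91 in SOM/SOM, so that replicate 3 lay within wild type. In double mutants it had a log2 fold change of -0.86 (adjusted p = 0.102), the opposite sign, with controls spread from 6.57 to 26.1 CPM. The SOM/SOM call was lost without any 1 of wild type or without SOM/SOM replicates 1 or 2 (adjusted p 0.0662 to 0.155). Rad54b, a DNA translocase that remodels recombination intermediates, was lower in double mutants by 0.54 ± 0.13 (adjusted p = 0.00886), with 32.2 to 41.0 CPM in controls and 23.7 to 27.8 in double mutants and no overlap. In Dicer SOM/SOM it had -0.22 (adjusted p = 0.222), and 39.1% of its exon length is shared with Fsbp on the same strand, which had 0.29 (adjusted p = 0.653) in double mutants. With younger animals alone the Rad54b call was lost (adjusted p = 0.262). The other 7 genes of this group were not called in any comparison. Brca1, Brca2 and Palb2, which act together at resected ends, had -0.27, -0.11 and 0.09 in Dicer SOM/SOM and -0.09, -0.12 and 0.06 in double mutants, and Rad54l, the other translocase, had 0.04 and -0.30. Rad51c, Xrcc2 and Xrcc3 ran from -0.40 to 0.34 in Dicer SOM/SOM and from -0.22 to 0.20 in double mutants.

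Mismatch repair and meiotic crossover held 7 genes with 1 call each in Dicer SOM/SOM and in double mutants, and not the same gene. The call was lower in Dicer SOM/SOM, beside 14.2% of all genes, and higher in double mutants, beside 12.3%. Pms2, which nicks the strand to be corrected, was lower in Dicer SOM/SOM by 0.57 ± 0.16 (adjusted p = 0.0194), from 14.0 to 15.7 CPM in wild type to 7.19 to 11.5, and had -0.43 (adjusted p = 0.129) in double mutants. Msh3, which recognises small loops, was higher in double mutants by 0.49 ± 0.15 (adjusted p = 0.0306), from 97.3 to 148 CPM in controls to 144 to 183, with 1 control inside the range of the mutants. In Dicer SOM/SOM Msh3 had 132 and 140 CPM in replicates 1 and 2 and 76.8 in the shallow replicate 3, against 92.6 to 98.0 in wild type, and without replicate 3 it was also called there. The Pms2 call was lost without wild-type replicate 1 or 2 (adjusted p 0.0514 and 0.0626), and the Msh3 call without double mutant 2o or 1 or control 1o, 2 or 3 (0.0582 to 0.0927). Msh4, Msh5, Msh6, Mlh3 and Pms1 did not pass in any comparison.

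In the Fanconi anaemia group, Fanci, a subunit of the clamp that closes on cross-linked DNA, was lower in Dicer ΔMT/ΔMT by 0.47 ± 0.14 on the log2 scale (adjusted p = 0.0445) and in double mutants by 0.46 ± 0.15 (adjusted p = 0.0408). Its samples were 39.5 to 46.5 CPM in wild type and 29.6 to 31.3 in ΔMT/ΔMT, and 37.5 to 56.7 in controls and 30.7 to 39.9 in double mutants. Neither call was firm: the first was lost without any 1 of its 7 samples (adjusted p 0.081 to 0.156), the second without any 1 sample except double mutant 1 and control 2 (0.0658 to 0.115). Polg, on the other strand, shares 13.4% of the exon length of Fanci and had -0.36 and -0.42 in the same comparisons (adjusted p = 0.0615 and 0.0659). In Dicer SOM/SOM Fanci was not called in the main fit, though its samples did not overlap wild type. DESeq2 called it lower there, as did edgeR without SOM/SOM replicate 1. Fancc, a subunit of the core ligase complex, was lower in Dicer SOM/SOM by 0.98 ± 0.28 (adjusted p = 0.0237), with 42.8, 45.9 and 51.8 CPM in wild type and 16.1, 37.8 and 14.96 in SOM/SOM. The low replicates 1 and 3 also stood apart in Gm42418, at 12719 and 17284 CPM against 4760 in replicate 2 and 5206 to 7569 in the other single-end samples; its part in the Fancc value was not tested. That call was lost without wild-type replicates 2 or 3 or SOM/SOM replicates 1 or 3 (0.0534 to 0.0771), and Fancc had -0.29 (adjusted p = 0.142) in double mutants. Fanca and Fancd2 were not called, nor were the RecQ helicases Blm and Wrn, which unwind recombination intermediates and had -0.34 and -0.06 in Dicer SOM/SOM and -0.25 and 0.02 in double mutants.

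Base excision and single-strand break repair was represented among the calls by Apex1, which encodes the endonuclease that cuts the strand at a site without a base. It had 9.14, 8.396 and 11.1 CPM in wild type, 10.2, 12.1, 14.1 and 11.1 in Dicer ΔMT/ΔMT and 14.97, 14.93 and 18.6 in Dicer SOM/SOM. Controls of the paired-end run had 10.0, 10.3, 13.7 and 9.94 CPM, RNAi mutants 17.7 and 16.7 and double mutants 15.7, 17.7, 16.4 and 23.2. Neither the SOM/SOM samples nor the double mutants overlapped their controls. Apex1 rose by 0.75 ± 0.16 on the log2 scale in Dicer SOM/SOM (adjusted p = 0.00494) and by 0.73 ± 0.17 in double mutants (adjusted p = 0.00734), and had 0.65 (adjusted p = 0.0613, called without control 2) in RNAi mutants and 0.31 (adjusted p = 0.178) in Dicer ΔMT/ΔMT. Its gene (chromosome 14, 50924968 to 50927139, plus strand) shares 70.8% of its exon length with Pip4p1 on the other strand, which was also higher in Dicer SOM/SOM (0.58, adjusted p = 0.00899) and in double mutants (0.62, adjusted p = 0.0147), so without strand the reads of these genes cannot be told apart. With younger animals alone the double mutant call was lost (adjusted p = 0.112). The other 7 genes of this group, Ung, Ogg1, Xrcc1, Lig1, Lig3, Parp1 and Parp2, were not called in any comparison and lay between -0.18 and 0.23 in Dicer SOM/SOM. Among the 3 nucleotide excision genes Xpc, which senses the distorted helix, was lower in Dicer ΔMT/ΔMT by 0.47 ± 0.12 (adjusted p = 0.0249) and in Dicer SOM/SOM by 0.45 ± 0.13 (adjusted p = 0.0279), from 22.9 to 25.4 CPM in wild type to 16.1 to 18.5 and 13.7 to 20.3. The Xpc call in ΔMT/ΔMT was lost without any 1 sample except ΔMT/ΔMT replicate 1 (0.0504 to 0.094) and in SOM/SOM without wild-type replicate 1 or 3 or SOM/SOM replicate 2 (0.0535 to 0.0824), and in double mutants Xpc had -0.15 (adjusted p = 0.567). Ercc1 and Xpa were not called.

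Loss of MILI activity on top of the Dicer SOM/SOM genotype called 0 of the 46 genes in double mutants against RNAi mutants, where 0.31% of all genes were called higher and 0.00476% lower. By edgeR's unadjusted test 1 of the 46 had p under 0.05, the glycosylase gene Ogg1 (-0.48, named after its value was seen), and DESeq2 called 0. The interval lay within 1 log2 unit for 43 of the 46, and within 0.5 log2 units for 14, beside 53.7% and 15.3% of all genes. Between older animals (35 to 40 weeks) and younger ones (10 to 17 weeks), with genotype in the model, edgeR called 0 of the 46 in each direction (0% and 0% of 18641 genes), 0 had an unadjusted p under 0.05, and DESeq2 called 0. For a difference of the double mutant effect with age, edgeR called 0 of the 46, and DESeq2 called 0. By edgeR 0.00536% and 0% of all genes were called higher and lower. Of the 46, Rad51b alone had an unadjusted p under 0.05. The interval of this difference lay within 1 log2 unit for 26 of the 46, and within 0.5 log2 units for 0. Over all genes the shares were 26.01% and 0.0268%. With intervals this wide, the absence of calls does not show that the effect was the same at both ages.

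The single samples were placed by their values. The rule counted genes outside the range of the controls and at least 1 log2 unit from their mean log2 CPM. By it the piRNA mutant had 0 of 46 genes apart from the 4 controls in either direction, where 3.36% of all genes lay higher and 4.57% lower. Xrcc4 stood at 19.3 CPM, Lig4 at 96.9, Trp53bp1 at 167, Rad52 at 35.5 and Apex1 at 15.8 there. Of these, Xrcc4, Lig4 and Rad52 lay within the control range and Trp53bp1 and Apex1 above it. The Dicer ΔMT/WT sample had 0 genes higher and 1 lower by the same rule (3.07% and 4.35% of all genes), Msh5, at 6 counts or 0.07 CPM against 0.35 to 0.50 CPM in wild type. Its Xrcc4 (17.2 CPM), Lig4 (90.8) and Trp53bp1 (154) lay within the wild-type range.

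Of 87 other DNA repair genes listed by pathway, 86 were found. Of 83 tested, SOM/SOM oocytes had 16 higher and 11 lower (19.3% and 13.3%), beside 14.5% and 14.2% of all genes. ΔMT/ΔMT oocytes had 13 and 2 (15.7% and 2.41%), beside 8.06% and 7.3%. Of 84 tested, RNAi mutants had 9 and 0 (10.7% and 0%), beside 7.07% and 3.64%. Double mutants had 13 and 6 (15.5% and 7.14%), beside 12.3% and 8.84%. Of 83 tested in both, SOM/SOM oocytes and double mutants had the same 10 genes higher and 4 lower, and 0 were opposite. Over all genes tested in both, the shares were 8.18% higher, 6.72% lower and 0.0846% opposite. Exo1, the exonuclease that resects ends, rose by 1.65 ± 0.10 on the log2 scale in Dicer SOM/SOM (adjusted p = 1.68e-06) and by 1.77 ± 0.10 in double mutants (adjusted p = 9.37e-08). Mbd4, a glycosylase that removes mispaired thymine, rose by 0.99 and 0.74, and Rnf168, the ubiquitin ligase whose mark recruits 53BP1, by 1.10 and 0.72. Rif1, which acts downstream of 53BP1 to block resection, fell by 0.60 and 0.45 in the same comparisons, as Trp53bp1 did. Nhej1, a further partner of XRCC4, fell by 0.80 in Dicer SOM/SOM (adjusted p = 0.00815) and had -0.47 (adjusted p = 0.137) in double mutants. Bard1, the partner of BRCA1 (named after its value was seen, like these others), was called in double mutants against RNAi mutants, at 1.61 ± 0.20 (adjusted p = 0.00241), while Brca1 had -0.07 there. Bard1 was the only call of 84 tested in that comparison (1.19%), beside 0.31% of all genes called higher.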

How the data were processed

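RNA of pooled GV oocytes was sequenced single-end in 1 run and paired-end in another. The authors mapped reads with STAR 2.5.3a to mm10 and counted them per GENCODE gene with featureCounts, both named in the submitters' processing notes, without strand and with multimapping and overlapping reads divided between genes. The deposited values are estimated counts, which the authors did not normalize, and they were rounded to whole numbers here.

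Each run was fitted apart with edgeR 4.0.16 (TMM, filterByExpr with a minimum count of 10 and total of 15, quasi-likelihood F test, Benjamini-Hochberg over all genes tested, threshold 0.05), with groups from the labels. DESeq2 1.42.0, other filters and left-out samples were alternatives. Fold changes are given with a Wald SE and intervals from the t distribution. The code was tested on simulated data. Replicate numbers were not treated as pairs.

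The 46 genes and the other lists were chosen with earlier results of these data known. By rule, sample values are given for genes called alike in Dicer SOM/SOM and in double or RNAi mutants, in double against RNAi mutants or between Dicer alleles, and for the gene with the highest level per length; those of Fancc, Rad51b and Msh3 were added after their values were seen. The rest are given by fold change and range.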

Additional observations from a re-analysis of the deposited data

Results flagged for a closer look

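Among 138 groups of 4 samples (46 genes in Dicer ΔMT/ΔMT, double mutant and heterozygous control oocytes), 7 held a sample whose distance to the nearest other sample exceeded the 95% critical value of Dixon's test for 4 samples; chance gives about 1 in 20 groups. Of these, 4 were in heterozygous controls, 3 in double mutants and 0 in Dicer ΔMT/ΔMT. Control 2 was high for Apex1, at 13.7 CPM with the others from 9.94 to 10.3, and for Fancc, at 47.8 CPM with the others from 35.2 to 37.1. Control 1o was high for Ercc1, at 2.16 CPM with the others from 1.58 to 1.63, and control 2o for Msh4, at 59.2 CPM with the others from 37.6 to 41.0. Double mutant 2o was low for Brca2, at 549 CPM with the others from 644 to 657, and high for Rad51b, at 10.1 CPM with the others from 6.57 to 7.08. Double mutant 1o was high for Ung, at 118.0 CPM with the others from 95.6 to 98.4.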

How the results depend on the processing

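The 29 calls of a gene in a comparison kept their direction under each alternative run. With 1 sample left out, 61 of 198 values no longer passed the threshold, and under the other alternatives 26 of 207. Lig4 kept its call against controls under each of them. The count of 5 called genes in Dicer ΔMT/ΔMT became 1 with no filter on low values, 11 when the model held the compared groups alone and 1 to 2 with a sample left out. The 10 in Dicer SOM/SOM became 6 with the compared groups alone and 14 by DESeq2. The 3 in SOM/SOM against ΔMT/ΔMT became 6 by DESeq2 and 2 to 7 with a sample left out, the 7 without the shallow SOM/SOM replicate 3. The 3 in RNAi mutants became 5 with a term for the Gm42418 library sets, and 2 without RNAi mutant replicate 1 or with younger animals alone, where Trp53bp1 was lost. The 8 in double mutants became 5 with younger animals alone and 5 to 7 with a sample left out. For the age by genotype interaction 1 gene, Rad51b, was called with no filter. The 5 genes called alike in Dicer SOM/SOM and double mutants became 3 with younger animals alone and 6 by DESeq2, with Fanci added. They became 6, with Msh3 added, without SOM/SOM replicate 3, an alternative added after the data were seen. The 3 called alike in Dicer SOM/SOM and RNAi mutants became 5 with the Gm42418 term and 2 with younger animals alone. The causes were not tested beyond what each alternative changes.

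Replicate numbers shared between groups were not taken to pair the samples. Same-numbered samples had a median correlation of deviations of 0.0082 over 9 pairs in the single-end run and -0.016 over 6 in the paired-end run. Double mutants and controls of the same number had 0.135, 0.0276 and 0.177, where differently numbered paired-end samples reached at most 0.107. Same-numbered RNAi mutant pairs were negative and are included in the paired-end median. Deviations of the 2 RNAi mutants from their mean mirror each other, so these values come with their opposites. Double mutant 1 had -0.0675 with RNAi mutant 1 and 0.0675 with RNAi mutant 2. Double mutants and controls of the same number were also in the same Gm42418 set. The lowest paired-end values were between sets, at -0.177 for double mutant 1o with control 2 and -0.183 for double mutant 2 with control 3. The part of the set in these values was not tested. With the replicate block the count was 1 in Dicer ΔMT/ΔMT (Lig4), 9 in SOM/SOM oocytes (without Rad51b), 2 between the Dicer alleles and 2 in RNAi mutants (both without Trp53bp1, adjusted p = 0.0957 and 0.0989) and 5 in double mutants (without Fanci, Msh3 and Rad54b), and 2 genes were called alike in SOM/SOM oocytes and RNAi mutants. The depth of SOM/SOM replicate 3 limits the weakly expressed Dmc1 and Msh5, with 8 and 2 counts there.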
